A study of Mus musculus with 6 samples.

Results

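The endoplasmic reticulum (ER) chaperones and the genes of the unfolded protein response were examined in mouse chondrocytes, the cells of cartilage. The set holds 38 genes, chosen by name from the 28812 genes of the deposited table because they serve folding, translocation, ER-associated degradation or stress sensing in the ER. Each of the 38 names matched 1 row. All cells were wild type, were labelled osteoarthritic (OA) and had received interleukin-1 beta (IL-1β), an inflammatory cytokine. In 3 libraries they had been given vehicle, and in the other 3 they had been given mitochondria, which the series title traces to osteocytes. The labels give no age, sex, passage or culture for any library, and no library without IL-1β was analysed here. They do not say whether replicates of a group were separate animals or cultures, so p-values measure only the spread between these libraries.

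Secreted and membrane proteins enter the ER through the Sec61 channel and fold there with the help of the chaperone BiP (Hspa5), its co-chaperones, lectin chaperones and disulfide isomerases. Proteins that fail to fold are passed back to the cytosol for degradation. When unfolded proteins accumulate, the sensors IRE1 (Ern1), ATF6 and PERK (Eif2ak3) start the unfolded protein response (UPR), in which spliced Xbp1 and cleaved ATF6 raise the transcription of chaperone and degradation genes. Chondrocytes secrete large amounts of collagen and proteoglycan and depend on this machinery.

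A sequence shared by many of these promoters is the ER stress response element (ERSE), the classical binding site for cleaved ATF6 together with the factor NF-Y. It is made of CCAAT, 9 bases of any kind and CCACG, and it was searched on both strands in RefSeq windows on GRCm38.p6 that run from 250 bases before to 50 bases after each annotated transcription start. A window was at hand for 30 of the 38 genes (not for Atf6, Derl1, Erp29, Hyou1, Manf, Sec61a1, Sil1 and Ssr2). The exact element stood in 9 of the 30 (30.0%) and in 37 of 27025 genes with a window (0.137%). With at most 1 mismatch in its 10 fixed bases it stood in 16 of the 30 (53.3%) and in 1.724% of all genes. The exact sites are shown because they mark the members with the textbook element. Each is written 5′ to 3′ on the strand that carries it as spelled, with 10 flanking bases on either side, and capitals mark the fixed bases:
Hspa5: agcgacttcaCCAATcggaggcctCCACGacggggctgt at chr2:34772015-34772053, plus strand
Hsp90b1, nearer site: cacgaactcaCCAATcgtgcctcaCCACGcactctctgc at chr10:86705523-86705561, plus strand
Hsp90b1, farther site: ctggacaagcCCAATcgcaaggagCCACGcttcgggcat at chr10:86705628-86705666, minus strand
Calr: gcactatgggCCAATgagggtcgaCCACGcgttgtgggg at chr8:84847065-84847103, plus strand
Canx: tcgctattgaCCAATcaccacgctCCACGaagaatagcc at chr11:50325790-50325828, minus strand
Pdia6: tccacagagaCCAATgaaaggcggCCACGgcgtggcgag at chr12:17266481-17266519, plus strand
Creld2: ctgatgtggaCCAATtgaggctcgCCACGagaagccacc at chr15:88819510-88819548, minus strand
Dnajc3: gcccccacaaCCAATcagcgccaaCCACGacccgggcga at chr14:118937817-118937855, plus strand
Syvn1: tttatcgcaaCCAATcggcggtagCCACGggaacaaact at chr19:6046522-6046560, plus strand
Derl3: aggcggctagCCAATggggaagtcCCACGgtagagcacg at chr10:75893232-75893270, minus strand

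These sites end between 25 bases (Syvn1) and 193 bases (the farther site of Hsp90b1) before the RefSeq start. A related element, ERSE-II (ATTGG, 1 base of any kind and CCACG, on either strand), was found in 2 of the 30 windows, those of Herpud1 and Dnajb11, and in 0.044% of all genes. The Dnajb11 site lies past the RefSeq start, not before it, and is not shown. The Herpud1 site ends 41 bases before the start, with the fixed bases of ERSE-II in capitals:
Herpud1: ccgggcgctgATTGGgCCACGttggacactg at chr8:94386367-94386397, plus strand
The XBP1 core motif TGACGTGG was on neither strand in any of the 30 windows, and it stood in 0.714% of all genes. The CCAAT and CCACG boxes searched by themselves, which are also parts of the ERSE, were in 23 and 24 of the 30, against 41.1% and 35.5% of all genes. A match is a description of the letters only.

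The 6 libraries held 63547854 to 66293786 deposited counts. These counts piled up at 4, at 2.31 to 2.84 times the mean number of genes at 3 and 5, so 1 sequenced fragment is taken to be worth about 4 counts. Levels are given below as CPM (counts scaled to the same library size, with TMM factors that adjust for composition), and genes are compared with each other in FPKM, which is also scaled to transcript length. On the first principal component of all genes, which held 43.0% of the variance, vehicle libraries lay at -30.39, -56.75 and -56.36 and mitochondria libraries at 81.4, 27.4 and 34.7. Mitochondria replicate 1 and vehicle replicate 1 therefore stood apart from the others of their groups. All 9 chondrocyte markers were detected, with Col2a1 at 112 FPKM and Sox9 at 10.4 FPKM with vehicle, and their summed level was 300 to 347 FPKM with vehicle and 245 to 266 FPKM with mitochondria. Of these 9, Sox9 and Acan rose (log2 0.54 each, adjusted p = 0.028 and 0.041, edgeR) and Col11a1 and Hapln1 fell (-0.94 and -1.03, adjusted p = 0.0087 and 0.0091). Of 5 osteocyte markers only Pdpn was well above 0, and the sum of the list was 78.6 to 119 and 120 to 131 FPKM. The defining osteocyte genes Dmp1 and Sost were at 0 in all 3 mitochondria libraries, and neither was at 0 in every vehicle library. Of the osteocyte list 2 genes were tested, with log2 fold changes of 0.52 and 1.34. Neither passed (lowest adjusted p = 0.064, edgeR), and 1 had an unadjusted p under 0.05. Summed levels were 3.91 to 4.44 and 2.64 to 3.17 FPKM for 5 osteoblast markers, 39.2 to 51.4 and 37.5 to 47.8 FPKM for 6 macrophage markers, and 46.7 to 52.2 and 38.9 to 46.9 FPKM for 3 plasma cell markers, of which Sdc1 made up most. The part of these marker levels in the results below was not tested.

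The ER chaperone genes were mostly a little higher in chondrocytes given mitochondria. By edgeR's quasi-likelihood test with Benjamini-Hochberg adjustment over 17290 genes, 8 of the 38 genes rose (21.1%, against 6.36% of all genes tested), and none fell (against 8.46%). An unadjusted p under 0.05 was reached by 19 of the 38 (50.0%, against 31.5% of all genes), of which 1, Dnajc3, was lower. DESeq2 called 13 members higher (against 10.1% of all genes) and 1, Dnajc3, lower (against 14.7%). The risers were Sdf2l1, Sec61g, P4hb, Edem2, Manf, Erp29, Edem1 and Ppib, and their log2 fold changes ran from 0.37 to 0.69. The median log2 fold change of the 38 was 0.23, against 0.00308 for all genes tested, and 29 of 38 estimates were above 0 (76.3%, against 50.3% of all genes). In 22 members (57.9%, against 19.8% of all genes) every mitochondria library was above every vehicle library. In 2 members, Dnajc3 and Dnajc10 (5.26%, against 20.9%), every one was below. In bulk libraries more cells of one kind and more RNA per cell cannot be told apart.

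**Figure D1:**
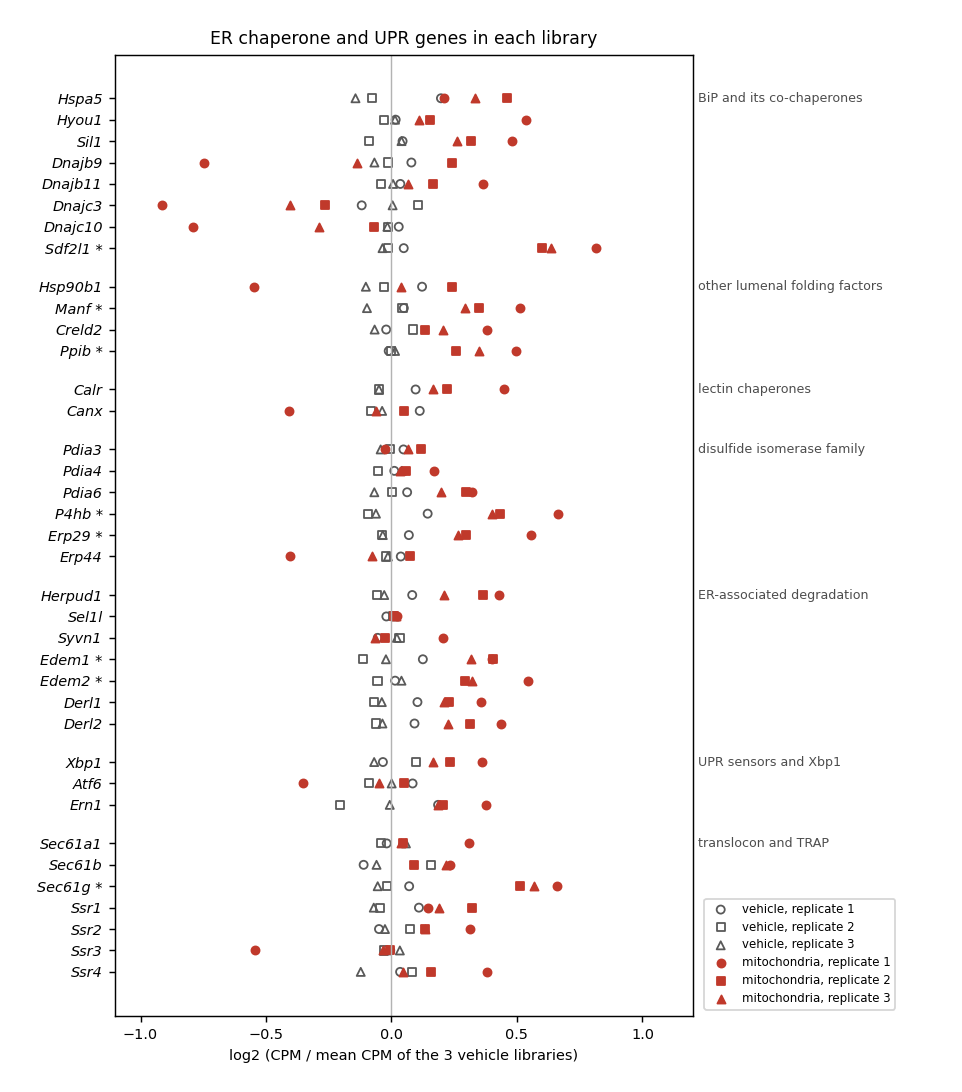
Level of 37 members in each of the 6 libraries, as log2 of CPM over the mean CPM of the 3 vehicle libraries (x axis), with genes grouped by role (y axis); open symbols are vehicle, filled red symbols are mitochondria, symbol shape is the replicate number, and an asterisk marks adjusted p under 0.05. Derl3, the scarcest member, is not drawn. Most red symbols lie to the right of 0, and the red circles of mitochondria replicate 1 lie far to the left for Dnajb9, Dnajc3, Dnajc10, Hsp90b1, Canx, Erp44, Ssr3 and Atf6.

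BiP itself was above the vehicle range in every mitochondria library and did not pass. Hspa5 (ENSMUSG00000026864, chromosome 2, 34771970 to 34777547 on GRCm38) was at 1087, 899 and 858 CPM with vehicle and at 1095, 1304 and 1194 CPM with mitochondria. The groups did not overlap, but vehicle replicate 1 was close to the lowest mitochondria library. Its log2 fold change was 0.34 ± 0.11 (SE, n = 3 per group; adjusted p = 0.073, edgeR). It passed in 6 of 18 alternative settings. These included the fits without mitochondria replicate 1 (0.40, adjusted p = 0.035) and with offsets for GC content (0.51, adjusted p = 0.0068). It did not pass when vehicle replicate 2 or 3, or mitochondria replicate 2 or 3, was left out.

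Of the 7 co-chaperones and partners of BiP, 1 rose and the others did not pass. Sdf2l1, which keeps BiP's substrates from aggregating as part of an ER chaperone complex, had the highest fold change of the 38. It was at 20.6, 19.7 and 19.4 CPM with vehicle and at 35.0, 30.2 and 31.0 CPM with mitochondria, with all mitochondria libraries far above the vehicle range. Its log2 fold change was 0.69 ± 0.11 (SE; adjusted p = 0.0079, edgeR), and the gene (ENSMUSG00000022769) lies on chromosome 16 at 17130138 to 17132383. The nucleotide exchange factors of BiP, Hyou1 and Sil1, had estimates of 0.28 and 0.36 (adjusted p = 0.15 and 0.051), and the J-domain protein Dnajb11 one of 0.20 (adjusted p = 0.20). Hyou1 was at 138, 133 and 137 CPM with vehicle and at 197, 151 and 147 CPM with mitochondria, so its largest excess was in mitochondria replicate 1.

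Dnajc3, a J-domain co-chaperone known as an inhibitor of PERK-family kinases, did not pass and had an estimate below 0. It was at 104, 122 and 114 CPM with vehicle and at 60.1, 94.1 and 85.6 CPM with mitochondria. All mitochondria libraries were below the vehicle range, and replicate 1 was the lowest. The log2 fold change of Dnajc3 was -0.50 ± 0.16 (SE; adjusted p = 0.068, edgeR), and it was called lower by DESeq2 (-0.51, adjusted p = 0.0097) and by edgeR without mitochondria replicate 1 (-0.33, adjusted p = 0.040). With GC offsets the estimate was -0.21 (adjusted p = 0.12). Dnajc10, a disulfide reductase with a J domain, was at 147, 143 and 142 CPM with vehicle and at 83.2, 137 and 118 CPM with mitochondria (log2 -0.35 ± 0.16, adjusted p = 0.17). Dnajb9, which holds BiP on the sensor IRE1, was at 50.2, 47.1 and 45.4 CPM with vehicle and at 28.3, 56.3 and 43.2 CPM with mitochondria. Those values of Dnajb9 fall on both sides of the vehicle range, and its estimate of -0.16 ± 0.21 (adjusted p = 0.66) became 0.29 with GC offsets.

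Of the other lumenal folding factors, Manf and Ppib rose and Creld2 and Hsp90b1 did not pass. Manf, a secreted ER stress-induced factor that binds BiP (chromosome 9, 106838312 to 106891915), was at 106, 106 and 95.9 CPM with vehicle and at 146, 131 and 126 CPM with mitochondria. The groups were apart, and the log2 fold change was 0.39 ± 0.10 (SE; adjusted p = 0.030, edgeR). Ppib, the ER prolyl isomerase cyclophilin B that serves collagen folding (chromosome 9, 66060222 to 66066623), was at 300, 301 and 305 CPM with vehicle and at 426, 360 and 385 CPM with mitochondria. Vehicle libraries were nearly identical for Ppib, and its log2 fold change was 0.37 ± 0.09 (SE; adjusted p = 0.025, edgeR). Creld2, an ER-resident factor with disulfide isomerase activity, had an estimate of 0.24 ± 0.11 (adjusted p = 0.17), with no overlap of the groups. The span of Manf also covers parts of Rbm15b on the same strand and Dcaf1 on the other, and that of Ppib part of Snx22. The counting's use of strand is not given in the sources used here, so reads in those stretches cannot be assigned with certainty.

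The ER member of the HSP90 family, Hsp90b1, was abundant and spread widely. It was at 1406, 1267 and 1204 CPM with vehicle and at 884, 1529 and 1328 CPM with mitochondria. Mitochondria replicate 1 was the lowest of all 6 libraries and mitochondria replicate 2 the highest. Its estimate of -0.05 ± 0.18 (SE; adjusted p = 0.88, edgeR) had a 95% interval of -0.45 to 0.35, and it was 0.14 without mitochondria replicate 1 (adjusted p = 0.31) and 0.31 with GC offsets (adjusted p = 0.046).

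The lectin chaperones, which hold glycoproteins while their sugars are trimmed, did not pass. Calr, the soluble form, was at 944, 853 and 853 CPM with vehicle and at 1206, 1030 and 991 CPM with mitochondria, so that the groups did not overlap (log2 0.28 ± 0.10, SE; adjusted p = 0.081, edgeR). Canx, its membrane-bound relative, was at 684, 597 and 616 CPM with vehicle and at 477, 655 and 606 CPM with mitochondria (log2 -0.13 ± 0.12; adjusted p = 0.53). Only mitochondria replicate 1 lay outside the vehicle range of Canx.

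Of the disulfide isomerase family, 2 of 6 genes rose. P4hb, which is protein disulfide isomerase and also the beta subunit of collagen prolyl 4-hydroxylase (ENSMUSG00000025130, chromosome 11, 120560298 to 120573253), was at 2657, 2253 and 2303 CPM with vehicle and at 3803, 3243 and 3176 CPM with mitochondria. All mitochondria libraries were above the vehicle range, by a log2 fold change of 0.50 ± 0.10 (SE; adjusted p = 0.015, edgeR). Erp29, a lumenal member without isomerase activity, was at 101, 94.3 and 94.4 CPM with vehicle and at 142, 119 and 116 CPM with mitochondria (log2 0.38 ± 0.10, adjusted p = 0.042). Most of its span is shared with Naa25 on the opposite strand, which was at 4.393 FPKM. Pdia6 missed the threshold (0.27 ± 0.08, adjusted p = 0.053), with no overlap of its groups. Pdia3, the partner of the lectin chaperones, was at 989, 953 and 929 CPM with vehicle and at 939, 1038 and 1002 CPM with mitochondria. Its groups overlapped, and the 95% interval of its log2 fold change was -0.12 to 0.23. Pdia4 and Erp44 had estimates of 0.09 and -0.12 (adjusted p = 0.51 and 0.55).

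Of the 8 ER-associated degradation genes, Edem1 and Edem2 rose. Both encode mannosidase-like proteins that mark misfolded glycoproteins for disposal. Edem1 (chromosome 6, 108828641 to 108859356) was at 110, 93.4 and 99.5 CPM with vehicle and at 133, 134 and 126 CPM with mitochondria (log2 0.37 ± 0.09, SE; adjusted p = 0.031, edgeR). Edem2 (chromosome 2, 155701677 to 155729475) was at 29.3, 27.9 and 29.9 CPM with vehicle and at 42.4, 35.6 and 36.2 CPM with mitochondria (log2 0.39 ± 0.11; adjusted p = 0.046). For both genes the lowest mitochondria library was above the highest vehicle library.

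Other degradation genes missed the threshold. Herpud1, a UPR-induced membrane protein that organises the degradation complex, was at 64.4, 58.5 and 59.6 CPM with vehicle and at 81.9, 78.2 and 70.3 CPM with mitochondria (log2 0.34 ± 0.10; adjusted p = 0.052, edgeR). The channel proteins Derl1 and Derl2 had estimates of 0.27 and 0.33 (adjusted p = 0.085 and 0.060), with no overlap of the groups. The core ubiquitin ligase Syvn1 and its adaptor Sel1l had estimates of 0.04 and 0.02 (adjusted p = 0.83 and 0.91). Sel1l was at 168, 171 and 172 CPM with vehicle and at 173, 172 and 173 CPM with mitochondria, a narrow range for its level, and its 95% interval was -0.16 to 0.19. Derl3 was barely detected, at 21, 52 and 4 deposited counts with vehicle and 18, 22 and 5 with mitochondria, and its difference was not detectable at this depth.

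The stress sensors and Xbp1 did not pass. Xbp1 was at 122, 134 and 119 CPM with vehicle and at 160, 147 and 140 CPM with mitochondria, with no overlap (log2 0.25 ± 0.09, SE; adjusted p = 0.10, edgeR). These are values of the whole gene, and the spliced form that encodes the active factor was not measured. Ern1 was at 59.98, 45.75 and 52.49 CPM with vehicle and at 68.56, 60.83 and 60.02 CPM with mitochondria (log2 0.26 ± 0.12; adjusted p = 0.18). Its highest vehicle value and its lowest mitochondria value were nearly the same. Atf6 had an estimate of -0.11 ± 0.12 (adjusted p = 0.59), with 59.3 CPM in mitochondria replicate 1 and 78.3 and 73.1 CPM in the others. Activation of these sensors by cleavage or phosphorylation is not visible in transcript levels.

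In the translocation group, which comprises the Sec61 channel and the translocon-associated protein complex (Ssr1 to Ssr4), 1 of 7 genes rose. Sec61g, the gamma subunit of the channel (ENSMUSG00000078974, chromosome 11, 16500530 to 16508484), was at 76.3, 71.8 and 69.9 CPM with vehicle and at 115, 103 and 108 CPM with mitochondria. The groups were far apart, and the log2 fold change was 0.58 ± 0.09 (SE; adjusted p = 0.0072, edgeR), the lowest adjusted p of the 38. The other subunits had smaller estimates: Sec61a1, which forms the pore, 0.14 ± 0.10 (adjusted p = 0.38), and Sec61b 0.18 ± 0.10 (adjusted p = 0.27). The 3 subunits of the channel thus have log2 fold changes between 0.14 and 0.58, and the difference between them was not tested. Ssr1, Ssr2 and Ssr4 had estimates of 0.20 to 0.22 and Ssr3 one of -0.17. Ssr3 was at 454, 446 and 466 CPM with vehicle and at 312, 453 and 445 CPM with mitochondria, so the lower estimate came from mitochondria replicate 1.

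None of the 9 genes with an exact ERSE, shown above, was among the 8 that rose (against 6.36% of all genes tested). A set of 9 genes is too small to tell 0 from that share. An unadjusted p under 0.05 was reached by 4 of the 9, of which 1, Dnajc3, was lower, and the lowest adjusted p was 0.053 (Pdia6, edgeR). DESeq2 called 2 of them higher, Hspa5 and Pdia6 (against 10.1% of all genes), and 1 lower, Dnajc3 (against 14.7%). Their estimates ran from -0.69 (Derl3) to 0.34 (Hspa5), with a median of 0.04. Of the 21 members with a window and no exact ERSE, 6 rose, with a median of 0.22, and of the 8 without a window 2 rose, Manf and Erp29. Of the risers with a window, Sec61g holds the element with 1 mismatch, shown here because this gene had the lowest adjusted p (capitals mark the bases equal to the ERSE):
Sec61g: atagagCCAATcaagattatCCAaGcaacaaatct at chr11:16508700-16508734, minus strand
With GC offsets 3 of the 9 ERSE genes were called higher (against 10.0% of all genes). Of the 21 members with a window and no exact ERSE, 9 were called higher with GC offsets. DESeq2 called 8 of the 21 higher (against 10.1% of all genes). These counts carry no test, and differences between the 2 sets of genes were not tested.

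**Figure D2:**
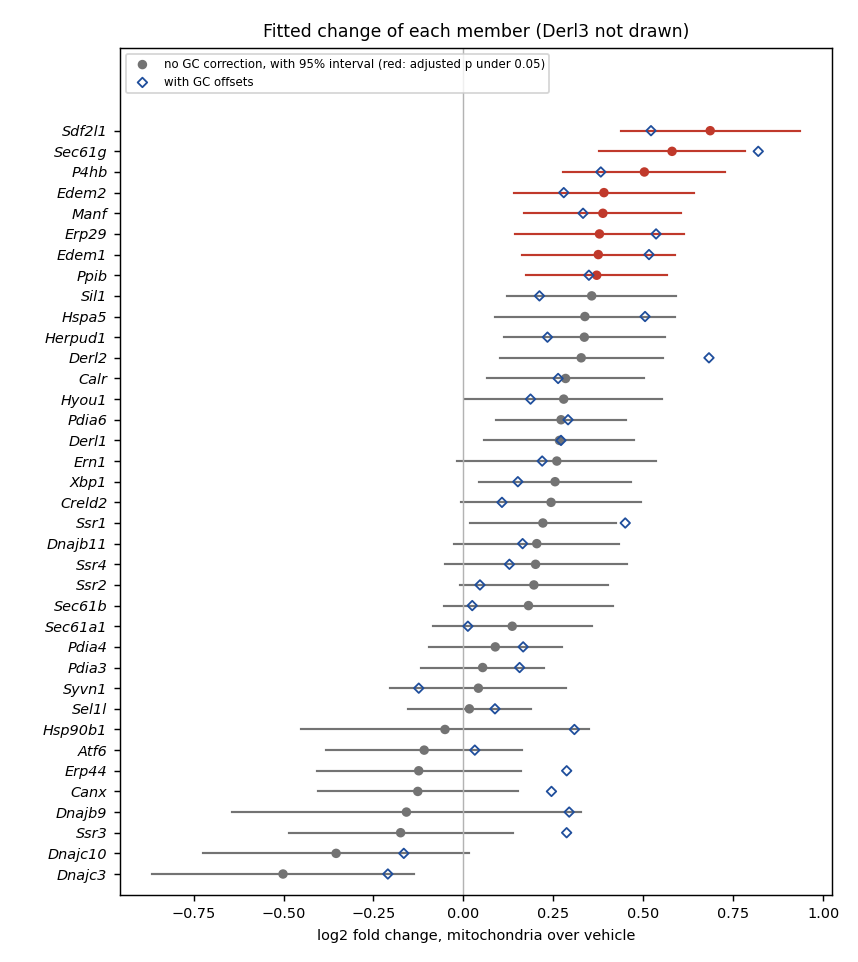
Fitted log2 fold change of mitochondria over vehicle (x axis) for 37 members ordered by size (y axis), with 95% intervals from 3 libraries per group (circles and bars, red where adjusted p was under 0.05) and the estimate with GC offsets (open diamonds). Sdf2l1 stands at 0.69 and Dnajc3 at -0.50, and the diamonds of Hsp90b1, Erp44, Canx, Dnajb9 and Ssr3 lie above 0 where their circles lie below it.

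The members that were lowest in mitochondria replicate 1 were mostly those of low GC content. GC content was taken from the longest GENCODE M21 transcript of each gene, and the 37 members other than Derl3 ranged from 40.6% (Dnajb9) to 56.7% (Sdf2l1), with a median of all 38 of 49.7%, as for all genes (49.7%). In mitochondria replicate 1, 8 of the 37 had their lowest value of the 6 libraries, and 7 of these 8 had a GC content under 45%: Dnajb9, Ssr3, Erp44, Hsp90b1, Canx, Dnajc3 and Dnajc10. The eighth was Atf6, at 46.0%. In the same library 25 of the 37 had their highest value, and only 2 of those, Derl2 and Sec61g, were under 45%. The limit of 45% was chosen after the values were seen.

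The 10 members under 45% GC had a median log2 difference from the vehicle mean of -0.47 in mitochondria replicate 1, 0.16 in replicate 2 and -0.05 in replicate 3. The 27 members at or above 45% had medians of 0.38, 0.22 and 0.20. Across these 37 genes the difference from the vehicle mean correlated with GC content at Pearson r = 0.677 (Spearman rho = 0.544) in mitochondria replicate 1, at 0.179 (0.103) in replicate 2 and at 0.413 (0.379) in replicate 3. Genes of 1 library are not independent replicates, and they share its depth and composition. The lean was not particular to this gene set: over all genes tested the deviation of a gene from its mean was also compared with GC content. Spearman rho was 0.522, 0.0106 and 0.142 in mitochondria replicates 1, 2 and 3. With vehicle it was -0.322, -0.319 and -0.289. That mean is over all 6 libraries, so a lean in 1 library shifts the values of the others. On this measure every mitochondria value was above every vehicle value. On the measure used for the 37 members, the difference from the vehicle mean, rho with vehicle was -0.385, 0.187 and 0.134. Vehicle replicates 2 and 3 were thus above mitochondria replicate 2 there. GC lean and treatment cannot be told apart with certainty in these libraries. The part of base composition in the values was not tested beyond the offsets that follow.

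**Figure D3:**
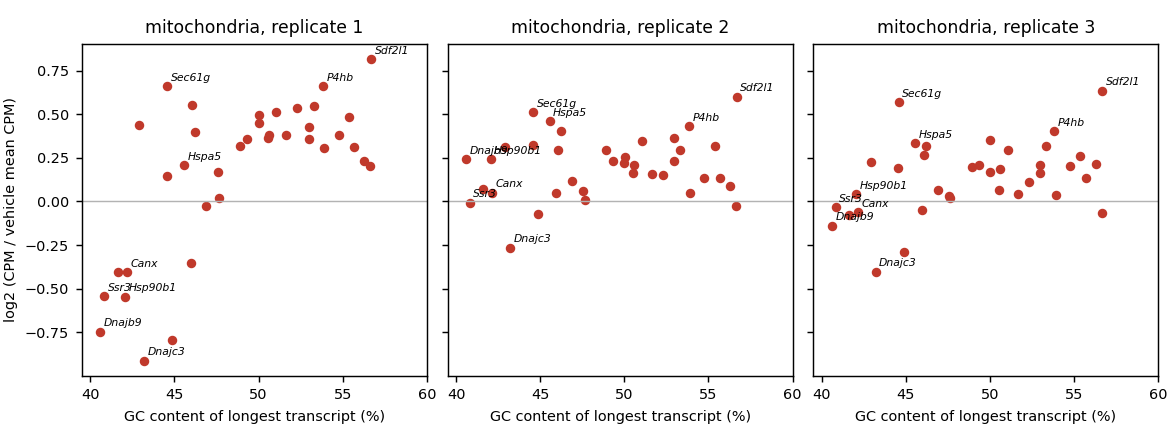
Difference of each member from the vehicle mean, as log2 CPM ratio (y axis), against the GC content of its longest transcript in percent (x axis), in the 3 mitochondria libraries; each point is 1 of 37 genes. In replicate 1 the members under 45% GC have a median of -0.47 and the others 0.38, while in replicate 2 the medians are 0.16 and 0.22.

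With an offset for GC content fitted in each library, 15 members were called higher (against 10.0% of all genes) and none lower (against 9.29%; 1 lower at an unadjusted p under 0.05). The 15 included 7 of the 8 risers, and Edem2 missed the threshold (0.28, adjusted p = 0.052, edgeR). The 8 added were Hspa5, Hsp90b1, Erp44, Pdia6, Derl1, Derl2, Ssr1 and Ssr3. Estimates above 0 numbered 34 of 38, and the median of the members was 0.24. Hsp90b1, Canx, Erp44, Dnajb9, Ssr3 and Atf6 changed from an estimate below 0 to one above it, and Syvn1 changed the other way, to -0.12. The log2 fold changes correlated with GC content at r = 0.533 without the offsets and at -0.269 with them.

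Length-scaled levels put the members in an order that spans a wide range. P4hb was the most abundant, at 782 ± 61.6 FPKM with vehicle and 1057 ± 105 FPKM with mitochondria (SD, n = 3). With vehicle it was followed by Hsp90b1 (298 ± 20.8 FPKM), Calr (285 ± 13.5 FPKM), Pdia3 (284 ± 6.62 FPKM) and Hspa5 (208 ± 24.3 FPKM). Hsp90b1, Calr and Pdia3 did not differ from each other beyond their spread. Canx, Pdia6, Ssr3, Pdia4 and Ppib lay between 85.0 and 125 FPKM, and the remaining members apart from Derl3 between 5.94 (Derl2) and 64.9 (Ssr2) FPKM. Derl3 was at 0.173 ± 0.17 FPKM. The sensors were low: Atf6 was at 7.63 ± 0.369 FPKM, which did not differ from Edem2 (7.80 ± 0.235 FPKM) beyond that spread, and Ern1 was at 5.995 ± 0.736 FPKM, which did not differ from Derl2 (5.94 ± 0.266 FPKM). Summed over the 38 genes, FPKM was 3127, 2928 and 2884 with vehicle and 3431, 3408 and 3302 with mitochondria. That was 0.994% to 1.08% of all FPKM with vehicle and 1.10% to 1.15% with mitochondria, and the ranges did not overlap. P4hb made up much of the difference: without it, a split chosen after its values were seen, the sums were 2274, 2188 and 2132 FPKM with vehicle and 2253, 2408 and 2311 FPKM with mitochondria, and the groups overlapped.

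**Figure D4:**
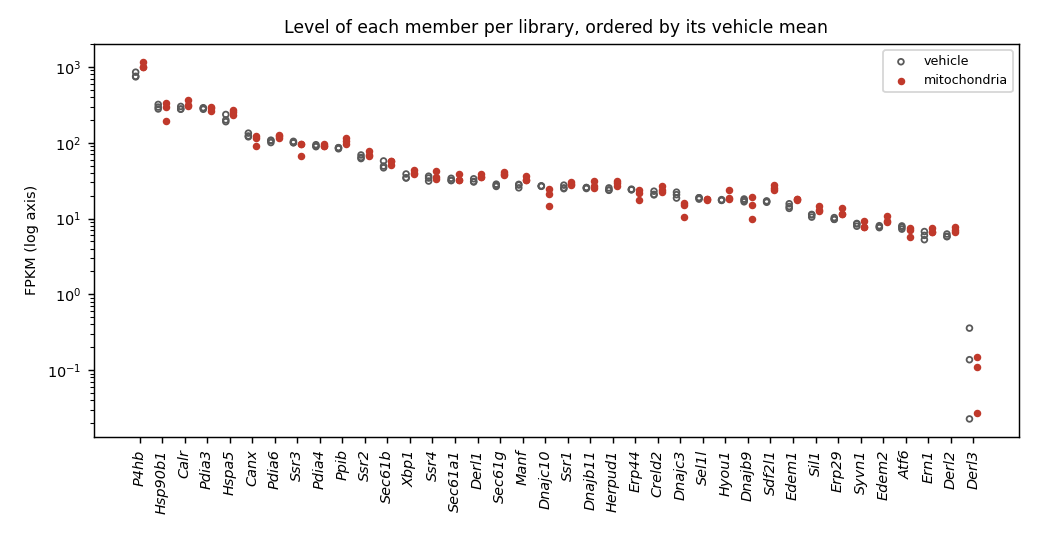
FPKM of each of the 38 members (y axis, log scale) in every library, with genes ordered by their mean in the vehicle libraries (x axis); open grey points are the 3 vehicle libraries and red points the 3 mitochondria libraries. P4hb is at the left with 782 FPKM with vehicle, and Derl3 at the right with 0.173 FPKM.

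Most of the related genes of the secretory pathway did not pass the test. Of 107 genes in 10 lists, 16 rose (15.0%, against 6.36% of all genes tested), 2 fell (1.87%, against 8.46%), and 89 did not pass. The median log2 fold change of the 107 was 0.13, and 76 estimates were above 0 (71.0%, against 50.3% of all genes). The lists were drawn up with earlier results of these data known. In the oligosaccharyltransferase, which attaches glycans to proteins that enter the ER, 4 of 12 genes rose and none fell. Its small subunit Ost4 was at 142, 138 and 134 CPM with vehicle and at 251, 198 and 204 CPM with mitochondria (log2 0.66 ± 0.11, SE; adjusted p = 0.0085, edgeR). The subunits Tmem258, Dad1 and Tusc3 rose by 0.50 ± 0.10, 0.39 ± 0.09 and 0.39 ± 0.09 (adjusted p = 0.015, 0.022 and 0.024), and Tusc3 was at 0.85 with GC offsets (adjusted p = 0.0076).

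Of the targeting and cleavage machinery, 2 of 10 genes of the signal recognition particle and its receptor rose, Srprb (0.42) and Srp68 (0.35), and 2 of 9 genes of signal peptidase and the accessory translocon factors, Spcs2 (0.35) and Sec11a (0.32). Adjusted p was 0.022 to 0.039 for these 4 (edgeR). With GC offsets Srp68 did not pass (0.22, adjusted p = 0.067), and Sec11a was at 0.63 (adjusted p = 0.010). Srp54a, Srp54b and Srp54c are near-identical copies, and their counts are uncertain. Ero1l, the oxidase that recharges protein disulfide isomerase, was at 1616, 1013 and 1022 CPM with vehicle and at 1853, 2453 and 2190 CPM with mitochondria. It was the one of 10 ER oxidase and thioredoxin-domain genes to rise (0.83 ± 0.19, adjusted p = 0.022), and vehicle replicate 1 lay closer to the mitochondria range than the other vehicle libraries. With GC offsets the estimate for Ero1l was 1.24 (adjusted p = 0.0026, edgeR).

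Glycan checkpoint genes held both directions. Uggt2, a homologue of the folding sensor that re-glucosylates misfolded glycoproteins, lies on chromosome 14 at 118985039 to 119099430, next to Dnajc3 at 118937976 to 118981697. It was at 13.6, 14.3 and 13.9 CPM with vehicle and at 4.16, 6.83 and 7.32 CPM with mitochondria, and it fell by 1.19 ± 0.21 on the log2 scale (adjusted p = 0.011, edgeR). With GC offsets its estimate was -0.80 (adjusted p = 0.0053). The cargo receptor subunit Mcfd2 rose in the same list of 9 (0.33, adjusted p = 0.041). In the COPII coat, which carries cargo out of the ER, Sec23b rose (0.31, adjusted p = 0.049) and Sec24a fell (-0.57, adjusted p = 0.049) of 12 genes. With GC offsets the estimate for Sec24a was -0.30 and did not pass (adjusted p = 0.086, edgeR), and that for Sec23b was 0.78 (adjusted p = 0.0081).

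In the PERK arm 2 of 9 genes rose. Atf4, the transcription factor translated when PERK is active, was at 320, 285 and 287 CPM with vehicle and at 473, 423 and 408 CPM with mitochondria (log2 0.55 ± 0.09, SE; adjusted p = 0.0093, edgeR). The other riser of this list, Trib3, was at 65.1, 59.4 and 58.6 and at 106, 90.5 and 92.0 CPM (0.66 ± 0.10; adjusted p = 0.0072). The kinase gene Eif2ak3 had an estimate of 0.07 ± 0.10 (adjusted p = 0.71), and it was -0.005 to 0.13 over all settings tried. Ddit3, which encodes the death-linked factor CHOP, was at 48.7, 40.9 and 44.4 CPM with vehicle and at 49.1, 49.2 and 47.0 CPM with mitochondria (0.12 ± 0.10; adjusted p = 0.48). Of the KDEL receptors, which return lumenal chaperones from the Golgi, Kdelr3 rose (0.37 ± 0.11, adjusted p = 0.049), and Kdelr2 and Kdelr1 had estimates of 0.23 and 0.15 (adjusted p = 0.11 and 0.35). The ER prolyl isomerase Fkbp2 rose in that list of 12 (0.54 ± 0.11, adjusted p = 0.016), and with GC offsets it did not pass (0.32, adjusted p = 0.065). The ERAD factor Faf2 rose as 1 of 15 (0.30, adjusted p = 0.047). None of the 9 tested genes of the other UPR transducers and their proteases passed (lowest adjusted p = 0.093, edgeR), with 2 at an unadjusted p under 0.05.

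The calls depended on single libraries. With vehicle replicate 2 left out no member passed (lowest adjusted p = 0.051, edgeR; 13 higher and 1 lower at an unadjusted p under 0.05), and 0.727% of all genes were called higher and 1.77% lower. With vehicle replicate 3 left out none passed either (lowest adjusted p = 0.055; 12 higher and 1 lower at an unadjusted p under 0.05), and 0.736% of all genes were higher and 1.73% lower. In both of these fits none of the 107 related genes passed. Leaving out vehicle replicate 1 gave 5 members higher (against 5.40% of all genes) and none lower (against 6.38%). Dropping mitochondria replicate 1 gave 10 higher (against 6.02%), which were the 8 risers, Hspa5 and Pdia6, and 1 lower (against 9.39%), Dnajc3. The fit that lacked mitochondria replicate 2 called 4 higher (against 4.87%) and Dnajc3 lower (against 8.50%). For mitochondria replicate 3 the counts were 3 higher (against 2.21%) and none lower (against 4.07%). Sdf2l1, Sec61g and P4hb passed in 4 of these 6 fits, Ppib and Edem1 in 2, and Manf, Erp29 and Edem2 in 1. In these 6 fits the median of the members stayed between 0.16 and 0.27. The estimates of Hsp90b1, Dnajb9, Syvn1 and Derl3 changed direction when certain single libraries were left out.

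**Figure D5:**
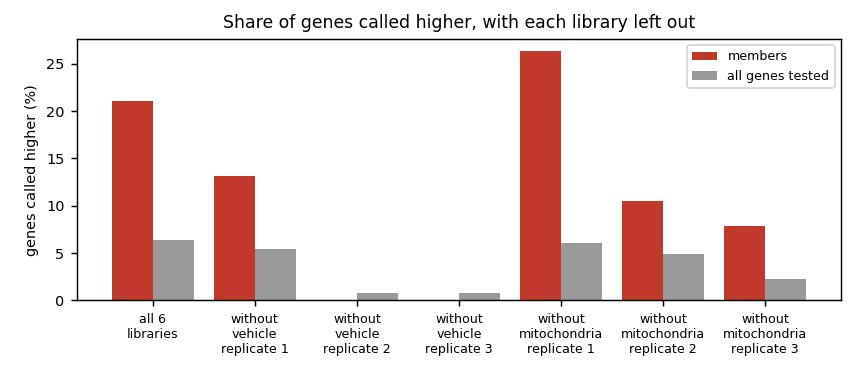
Percentage of genes called higher with mitochondria at an adjusted p under 0.05 (y axis) among the 38 members (red bars) and among all genes tested (grey bars), with all 6 libraries and with each left out in turn (x axis). The members reach 21.1% with all libraries and 0% without vehicle replicate 2 or vehicle replicate 3, where the grey bars stand at 0.727% and 0.736%.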

How the data were processed

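Poly(A) RNA of 6 mouse chondrocyte libraries was sequenced as paired ends, per the labels' protocols. The authors deposited 1 table with FPKM and estimated counts per gene and library, per the file headers. The submitters' processing notes name mm8, Bowtie 0.12.2, HISAT2 2.0 and StringTie 1.3.0 without a role. The coordinates match GRCm38 instead: of 28732 identifiers found in GENCODE M21, 90.2% had the same start and end. The expected counts were used as deposited, in edgeR 4.0.16 (R 4.3.3): filterByExpr (minimum count 10), TMM, a quasi-likelihood fit with group as its term, two-sided, Benjamini-Hochberg adjustment over 17290 genes, threshold 0.05. The SE is the absolute log2 fold change over the root of F. All 38 members passed the filter. Members and lists were chosen with earlier results of these data known. All members are named, and of each list the called genes (at most 5) plus Atf4, Ddit3, Eif2ak3 and the KDEL receptors. Alternatives were DESeq2 1.42.0, limma 3.58.1 on log2(FPKM + 0.1) or log2(FPKM + 1), other scalings and filters, counts divided by 4, GC offsets (lowess, span 0.5), a replicate block and each library left out. The edgeR script was tested on simulated counts.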

Additional observations from a re-analysis of the deposited data

How the results depend on the processing

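Over 18 alternatives the 38 members gave 679 single values, of which 562 kept their direction and side of the threshold and 49 lost a call. Another 39 gained a call in the same direction, and 29 changed direction, with or without a call. The 29 include the calls that Hsp90b1, Erp44 and Ssr3 gained with GC offsets. The median of the members stayed between 0.16 and 0.29. Members called higher numbered 13 with upper-quartile scaling (8.42% of all genes), 13 with DESeq2 (10.1%), 2 with no filter on low counts (all genes 357 higher and 507 lower), 2 with limma on FPKM with no filter (all genes 175 and 312), 15 with GC offsets (all genes 1737 higher) and 15 with GC offsets and the block (8.94% of all genes higher). For all genes, upper-quartile scaling gave 1456 higher and 1350 lower, against 1099 and 1463. No filter adds rows to the adjustment, and counts divided by 4, with 12 members higher (8.70% of all genes), change the filter. Members called lower numbered 1, Dnajc3, with DESeq2 (14.7% of all genes lower), counts divided by 4 (11.6%), limma with pseudocounts of 0.1 (12.3%) and 1 (13.4%), and the block (8.02%). Related genes called higher numbered 8 with no filter, 2 with limma without a filter, 30 with GC offsets, 10 with the block and 27 with both, and those called lower numbered 1 with upper-quartile scaling, 5 with DESeq2, 1 with no filter, 4 with a stricter filter, 4 with counts divided by 4, 5 and 6 with limma at pseudocounts of 0.1 and 1, and 0 with limma without a filter. With 1 library left out, members numbered 0 to 10 higher and 0 to 1 lower, and related genes 0 to 18 higher and 0 to 6 lower. All genes numbered 130 to 1086 higher (0.727% to 6.02%) and 310 to 1694 lower (1.73% to 9.39%). Libraries of the same replicate number correlated at 0.0371, 0.00907 and -0.0152 over their deviations from the group means, and other pairs at -0.0314 to 0.0257, so the numbers were not taken to pair samples. The replicate block gave 6 members higher (5.19% of all genes), and 898 higher and 1386 lower of all genes. Direction changed for Hsp90b1 (0.0029 with upper-quartile scaling, 0.31 with GC offsets, 0.31 with the block too, and -0.22 to 0.14 with each library left out, above 0 when that was vehicle replicate 1 or the first mitochondria library) and for Dnajb9 (0.29, 0.29 with the block too, and -0.41 to 0.065 with each library left out, above 0 for the same mitochondria library). With GC offsets, without and with the block, it changed for Canx (0.24 and 0.25), Erp44 (0.29 and 0.29), Ssr3 (0.29 and 0.29), Atf6 (0.032 and 0.032) and Syvn1 (-0.12 and -0.12), and Syvn1 was -0.047 to 0.093 with each library left out. The limma fits (pseudocount 0.1, pseudocount 1, no filter) gave -0.016, -0.016 and -0.016 for Pdia3, -0.052, -0.050 and -0.052 for Sel1l, -0.031, -0.028 and -0.031 for Syvn1, and -0.0050, -0.0041 and -0.0050 for Eif2ak3. Derl3 was -1.20 to 0.31 with each library left out, above 0 for vehicle replicate 2. The cause was not tested. At about 4 deposited counts per fragment, counting error limits Derl3 most.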
